A study of Mus musculus with 12 samples.

Results

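The transcript of p53 (gene Trp53) and those of 8 genes known as its direct targets (Mdm2, Cdkn1a, Ccng1, Bax, Bbc3, Pmaip1, Phlda3 and Trp53inp1) were followed across 4 groups of mouse embryonic stem cells (ESCs). The genes were chosen by name, as 9 of the 26061 rows of the gene table, and each of them passed the filter on low values. The cells were feeder-free Tet2 KO ESCs that had been given back either WT TET2 or a catalytic mutant of it, through a PiggyBac transposon, which inserts a construct stably into the genome. Every library came from cells infected with an shRNA against Setdb1 (shSetdb1), selected with 1 µg/ml puromycin from 48 hours after infection and harvested when selection had lasted 3 days. Cells were grown either in 2i medium, which holds LIF and inhibitors of MEK and GSK3 and keeps ESCs naïve, or in serum with LIF, in which they are primed. The groups were WT TET2 in 2i, mutant TET2 in 2i, WT TET2 in serum and mutant TET2 in serum, with 3 poly(A) RNA-seq libraries in each. Libraries with a control shRNA were not analysed here, so the effect of SETDB1 depletion on these genes was not measured. Whether a rescue line was 1 clone or a pool, and whether the 3 libraries of a group came from separate cultures, is not given in the sources used here, so the p-values measure the spread between these libraries.

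p53 is a transcription factor that is made continuously and destroyed by the ubiquitin ligase MDM2, whose gene it activates in turn, so that much of its control acts on the protein and not on the transcript. When DNA damage or other stress stabilises it, it binds paired copies of a short DNA element and raises genes that halt the cell cycle, repair DNA or kill the cell. ESCs are known for abundant p53 and for a cell cycle with a weak G1 checkpoint, in which little p21, the product of Cdkn1a, is made.

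Promoter sequences were taken from RefSeq (GRCm38.p6), from 250 bases before to 50 after each transcript start, and 10 such windows were found for 7 of the 9 genes. Pmaip1 and Trp53inp1 had no entry. The core of a p53 binding element, CATG or CTTG and likewise CAAG or CTAG, was searched for as a pair with 6 bases between them, on both strands. A pair was found in 3 of the 10 windows, against 7.22% of all 32851 promoter windows. Bbc3 and Cdkn1a each gave more than a single window, and those of Bbc3 partly overlap, so that the windows are not independent. The windows with a pair belonged to Trp53, Bbc3 and the upstream start of Cdkn1a. The full single element, a core between 3 purines and 3 pyrimidines, was found in 5 of the 10 windows and in 8.36% of all windows. It can share its core with a pair. Windows are shown for the genes whose levels are compared most closely below, and both starts of Cdkn1a are given because they differ. Capitals mark a pair of cores or a single element.
Cdkn1a, upstream start, chr17:29090729-29091028, plus strand: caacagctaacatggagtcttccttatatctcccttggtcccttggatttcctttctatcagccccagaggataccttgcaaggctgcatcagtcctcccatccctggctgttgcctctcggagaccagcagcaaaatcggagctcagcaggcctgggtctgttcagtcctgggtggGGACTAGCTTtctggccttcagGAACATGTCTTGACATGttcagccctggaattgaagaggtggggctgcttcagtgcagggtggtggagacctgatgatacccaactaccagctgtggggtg
Cdkn1a, main start, chr17:29093519-29093818, plus strand: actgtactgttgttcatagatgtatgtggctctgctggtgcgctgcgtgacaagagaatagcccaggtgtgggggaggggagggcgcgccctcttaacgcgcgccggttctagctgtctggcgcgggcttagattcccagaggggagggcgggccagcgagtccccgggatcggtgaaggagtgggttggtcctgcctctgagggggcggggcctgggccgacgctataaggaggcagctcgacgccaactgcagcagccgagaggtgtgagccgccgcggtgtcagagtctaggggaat
Trp53, chr11:69580109-69580408, plus strand: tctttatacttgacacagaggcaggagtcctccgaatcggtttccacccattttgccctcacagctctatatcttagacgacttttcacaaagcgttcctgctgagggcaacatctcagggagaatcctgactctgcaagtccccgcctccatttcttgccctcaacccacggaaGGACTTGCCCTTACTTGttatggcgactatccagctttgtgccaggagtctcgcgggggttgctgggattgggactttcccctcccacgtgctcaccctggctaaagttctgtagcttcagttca
Mdm2, chr10:117710709-117711008, minus strand: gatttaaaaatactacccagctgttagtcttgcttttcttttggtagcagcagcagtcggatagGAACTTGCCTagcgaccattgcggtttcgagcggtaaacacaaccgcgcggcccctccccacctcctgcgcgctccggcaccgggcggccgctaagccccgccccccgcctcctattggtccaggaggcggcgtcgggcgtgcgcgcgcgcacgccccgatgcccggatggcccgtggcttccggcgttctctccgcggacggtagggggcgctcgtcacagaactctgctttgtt
The upstream Cdkn1a window held a pair and a separate single element, whereas the window at the main start held neither. The Mdm2 window held 1 single element and no pair. These are matches of letters in 300 bases, and p53 binding was not measured.

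In mm9, the build used for alignment, Trp53 lies on chromosome 11 (69393861 to 69405375, plus strand), Cdkn1a on chromosome 17 (29227924 to 29237667, plus strand) and Mdm2 on chromosome 10 (117125944 to 117147814, minus strand). No annotated gene overlaps any of the 9, so that the unstranded libraries do not mix their reads with those of a neighbour on the other strand. A pseudogene, Trp53-ps, is annotated and has no row in the gene table, and reads shared with it were placed at random among equal positions.

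Gene reads per library ranged from 8066662 to 21335933, and the libraries of a group correlated at 0.968 to 0.994. Values are given on the variance-stabilised log2 scale of the table, on which a gene without reads sits at 3.81. The 10 markers of ESCs that were checked summed to between 5250 and 6870 RPM (reads scaled to the gene reads of a library) in all libraries. Of these, 5 passed the test between media with WT TET2 (1 higher and 4 lower in naïve ESCs, 50%). With mutant TET2, 4 passed, all lower (40%), beside 35.9% and 35.2% of all genes. A list of 7 naïve ESC markers summed to 969 to 1530 RPM in 2i and 480 to 855 in serum. In each line 3 of them were called higher and 1 lower in naïve ESCs (57.1%). The 6 markers of primed cells summed to 58.4 to 176 RPM in 2i and 591 to 1090 in serum, which is the order the labels give. Most of these sums came from Dnmt3b and Dnmt3l, and Fgf5 and T did not pass the filter on low values. The 4 primed markers that were tested were all called lower in naïve ESCs in each line. The 6 trophoblast markers summed to 3.83 to 7.23 RPM in 2i and 22.1 to 51.4 in serum, and the 3 neural markers to 93.1 to 155 and 196 to 279. The 3 trophoblast markers that were tested were all called lower in naïve ESCs in each line, as were 2 of the 3 neural ones. Of 8 fibroblast genes, Col1a2, Col3a1, Dcn and Postn had no reads in any library, and the list summed to 5.99 to 8.16 RPM in 2i and 3.37 to 5.39 in serum. Of the 2 fibroblast genes tested, 1 passed between media with WT TET2 (Thy1, higher in naïve ESCs) and 2 with mutant TET2 (Thy1 higher and Lum lower). The part of these lists in the differences between media was not tested. Tet2 RNA was higher with the WT construct than with the mutant, by 2.16 in naïve ESCs (limma, adjusted p = 0.0154) and by 1.84 in primed ESCs (adjusted p = 0.0297). The naïve call was lost without WT naïve replicate 3 or mutant naïve replicate 1 or 2 (adjusted p 0.081 to 0.131) and in the fit of the 6 libraries alone (0.0526). The primed call was lost without any one library of the comparison except mutant primed replicate 3 (0.0514 to 0.150). TET2 protein is not measured in these files, and from RNA alone the amount of TET2 and its catalytic activity cannot be told apart in the comparisons of rescue lines. The 4 Y-linked genes checked summed to 370 to 468 RPM with WT and 163 to 238 with mutant TET2 in naïve ESCs, and to 267 to 354 and 107 to 186 in primed ESCs. Of these 4, 1 was called higher with WT TET2 in naïve and 2 in primed ESCs, with median differences of 1.18 and 1.27, and their part in the differences between rescue lines was not tested. Setdb1 lay between 7.46 and 8.55 in all 12 libraries and was uneven within groups. In naïve ESCs it read 7.73, 7.51 and 8.21 with WT TET2 and 7.56, 7.46 and 8.04 with mutant TET2. In primed ESCs it read 8.19, 8.22 and 8.40 with WT TET2 and 7.52, 8.26 and 8.55 with mutant TET2. The part of this spread in the values of the 9 genes was not tested.

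Trp53 RNA was lower in naïve than in primed ESCs, with either form of TET2. With WT TET2 it read 11.30, 11.90 and 11.64 in naïve ESCs and 12.53, 12.31 and 12.48 in primed ESCs. With mutant TET2 it read 11.05, 10.95 and 11.57 in naïve ESCs and 12.10, 12.25 and 11.92 in primed ESCs. Every naïve library lay below every primed library, in both rescue lines. The difference, naïve minus primed, was -0.83 with WT TET2 (95% confidence interval -1.22 to -0.43, adjusted p = 0.00281), which is 1.77-fold lower in naïve ESCs. With mutant TET2 it was -0.90 (-1.29 to -0.50, adjusted p = 0.00162), or 1.86-fold lower. Both calls held under all 15 alternative settings. In bulk RNA, fewer cells that express a gene and less RNA in each cell cannot be told apart, which holds for every value here.

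**Figure D1:**
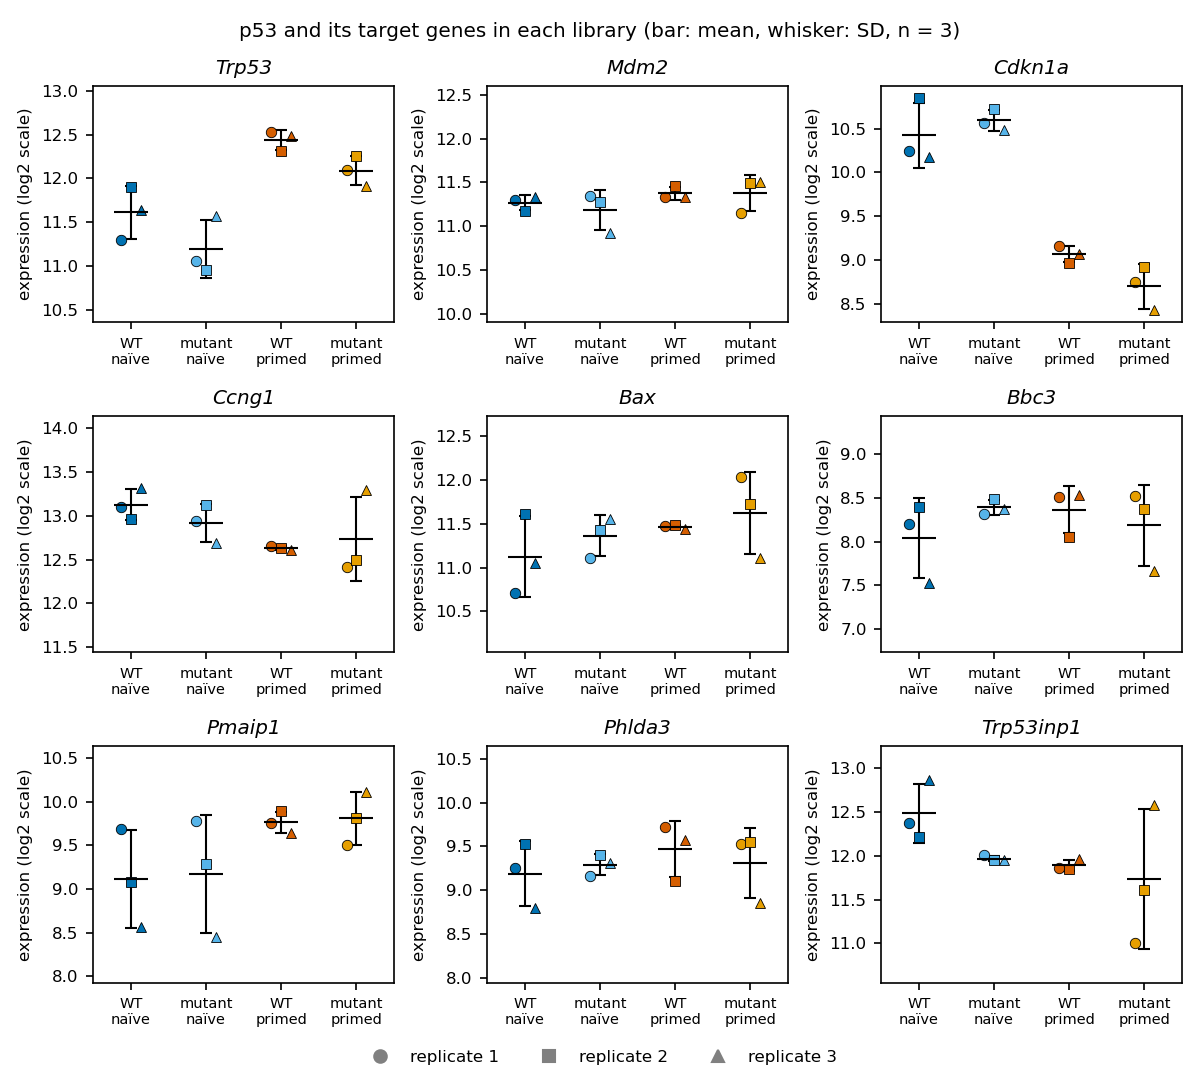
Expression of the 9 genes in each of the 12 libraries. The y axes show the variance-stabilised log2 value, with each gene on its own range, points are libraries with their replicate number as shape, the horizontal bar is the mean and the whisker the SD (n = 3 per group). Trp53 sits lower and Cdkn1a higher in the naïve groups than in the primed groups, and the other genes overlap in at least 1 of the rescue lines.

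Cdkn1a, which encodes the cyclin-dependent kinase inhibitor p21, went the other way and had the largest difference of the 9 genes between media. With WT TET2 it read 10.24, 10.85 and 10.18 in naïve ESCs and 9.16, 8.97 and 9.07 in primed ESCs. In the mutant rescue it read 10.57, 10.73 and 10.49 in naïve ESCs and 8.75, 8.92 and 8.42 in primed ESCs. The naïve and primed libraries did not overlap in either line. Cdkn1a was 2.57-fold higher in naïve ESCs with WT TET2 (difference 1.36, 95% interval 0.97 to 1.75, adjusted p = 3.82e-05). It was 3.72-fold higher with mutant TET2 (difference 1.90, interval 1.5 to 2.29, adjusted p = 1.47e-06). Both calls held in every alternative setting. The difference between media was larger with mutant TET2 by 0.53, but the interval of this contrast ran from -1.09 to 0.02 and its adjusted p was 0.976, so that the lines were not shown to differ.

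Because both transcripts come from the same library, the reads of Cdkn1a can be set against those of Trp53 without any scaling between libraries. This ratio was chosen after the values were seen and is given without a test. In naïve ESCs there were 47.6, 47.9 and 35.8 Cdkn1a reads per 100 Trp53 reads with WT TET2. With mutant TET2 there were 71.0, 85.8 and 46.7. In primed ESCs the ratio was nearly the same in all 6 libraries, at 9.23, 9.37 and 8.93 with WT TET2 and 9.24, 9.44 and 8.22 with mutant TET2. The mean was 43.8 ± 6.90 (SD, n = 3) against 9.17 ± 0.22 with WT TET2, and 67.8 ± 19.7 against 8.97 ± 0.65 with mutant TET2. On the log2 scale the naïve ratio exceeded the primed ratio by 2.24 with WT TET2 and by 2.88 with mutant TET2. Leaving out 1 library moved these values between 2.17 and 2.38 and between 2.69 and 3.12. The naïve libraries varied more among themselves than the primed ones.

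**Figure D2:**
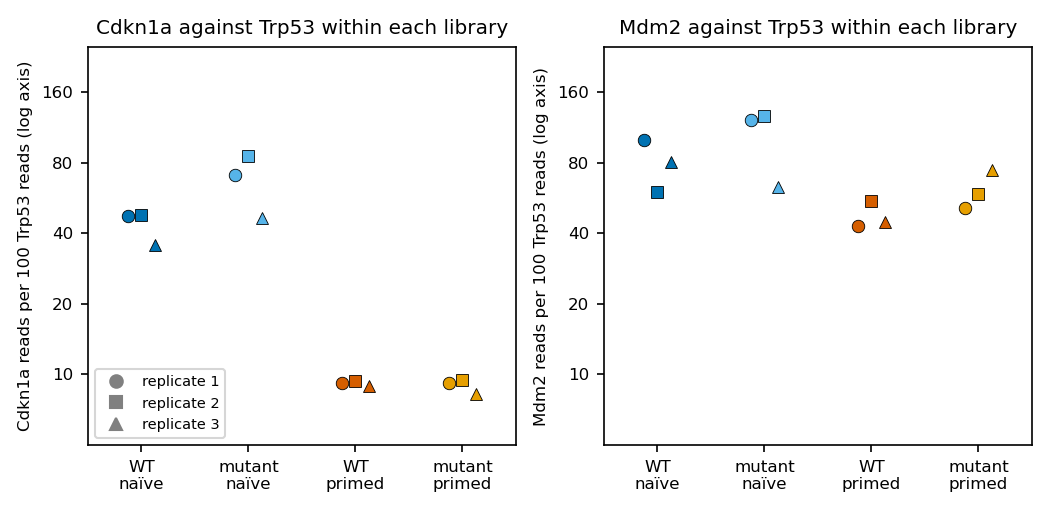
Reads of Cdkn1a (left) and of Mdm2 (right) per 100 Trp53 reads of the same library, on a log axis, for the 4 groups. Points are libraries, with the replicate number as shape. Cdkn1a falls into 2 separate bands, 35.8 to 85.8 in naïve and 8.22 to 9.44 in primed ESCs, whereas the Mdm2 ratios of the media overlap with mutant TET2 and lie closer together with WT TET2 (59.8 to 100 against 43.2 to 55.2).

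Mdm2, which encodes the ligase that destroys p53, had no difference that passed the test in any comparison. In naïve ESCs it read 11.30, 11.17 and 11.33 for the WT rescue and 11.34, 11.28 and 10.92 for the mutant. In primed ESCs it read 11.33, 11.46 and 11.34 with WT TET2, and 11.15, 11.49 and 11.51 with mutant TET2. All 4 groups overlapped. Naïve minus primed, the difference was -0.11 with WT TET2 (95% interval -0.43 to 0.22) and -0.20 with mutant TET2 (-0.53 to 0.13). It had at least 1625 reads in every library. Its reads per 100 Trp53 reads were 80.2 ± 20.2 (SD, n = 3) in naïve and 47.8 ± 6.49 in primed ESCs with WT TET2, and 104 ± 35.3 and 61.7 ± 12.1 with mutant TET2. The media did not overlap in this ratio with WT TET2 and did so with mutant TET2.

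Across the 9 genes, 2 passed the test between media with WT TET2, 1 in each direction, where 35.9% of all 14185 genes tested passed it. With mutant TET2 it was the same 2 genes, Trp53 and Cdkn1a, against 35.2% of all genes. A share of 2 in 9 is not above these backgrounds. The groups did not overlap for 4 of the 9 genes with WT TET2 and for 2 with mutant TET2, against 50.0% and 43.5% of all genes. The median difference of the 9 genes was -0.28 with WT TET2 and -0.02 with mutant TET2, where the medians over all genes were 0.01 and -0.0086.

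Ccng1 encodes cyclin G1, which acts on MDM2 through a phosphatase and is among the targets most readily induced by p53. With WT TET2 it read 13.10, 12.96 and 13.32 in naïve ESCs and 12.66, 12.63 and 12.61 in primed ESCs, which did not overlap. The difference of 0.50 (95% interval 0.06 to 0.93) missed the threshold after adjustment (adjusted p = 0.0682). The mutant rescue read 12.94, 13.12 and 12.70 in naïve ESCs and 12.42, 12.50 and 13.29 in primed ESCs. Here replicate 3 of the primed group lay above all naïve libraries of the line, and the difference was 0.18 (-0.25 to 0.61, adjusted p = 0.518). Without that library it was 0.46 (adjusted p = 0.0392). With WT TET2 it passed the test when the 6 libraries of the comparison were fitted alone (adjusted p = 0.0193).

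Trp53inp1, whose product helps p53 to become phosphorylated and takes part in autophagy, had a like pattern. With WT TET2 it read 12.38, 12.22 and 12.86 in naïve ESCs and 11.86, 11.85 and 11.97 in primed ESCs, with no overlap. The difference of 0.59 (95% interval 0.01 to 1.18) did not pass (adjusted p = 0.104), but did so in the fit of the 6 libraries alone (adjusted p = 0.0172). With mutant TET2 the naïve libraries were close together at 12, 11.95 and 11.95, and the primed libraries were spread over 11.01, 11.61 and 12.59. The difference was 0.23 (-0.35 to 0.82, adjusted p = 0.544). Without replicate 3 of the primed group it was 0.66 (adjusted p = 0.0178), and without replicate 1 it turned to -0.13.

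The 3 cell death genes among the 9 showed no difference between media that passed the test. Bax, which permeabilises the mitochondrial membrane, read 10.71, 11.62 and 11.05 in naïve and 11.47, 11.49 and 11.44 in primed ESCs with WT TET2. With mutant TET2 it read 11.11, 11.43 and 11.56 in naïve and 12.04, 11.73 and 11.11 in primed ESCs. The groups overlapped in both lines, with differences of -0.35 (95% interval -0.84 to 0.15) and -0.26 (-0.75 to 0.23).

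Bbc3, which encodes the BH3-only protein PUMA, had the fewest reads of the 9 genes, with 152 to 645 per library. It read 8.20, 8.40 and 7.52 in naïve and 8.51, 8.06 and 8.53 in primed ESCs with WT TET2. In the mutant rescue it read 8.31, 8.49 and 8.37 in naïve and 8.52, 8.38 and 7.66 in primed ESCs. The lowest libraries were replicate 3 of WT naïve and replicate 3 of mutant primed ESCs, and the groups overlapped. The differences were -0.32 (95% interval -0.84 to 0.20) with WT TET2 and 0.21 (-0.31 to 0.73) with mutant TET2, the second of which turned to -0.06 without that primed library.

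Pmaip1, which encodes the BH3-only protein NOXA, lay lower in naïve ESCs by nearly the same amount in the 2 lines, but with a wide spread. It read 9.69, 9.07 and 8.57 in naïve and 9.75, 9.89 and 9.65 in primed ESCs with WT TET2. The mutant rescue read 9.78, 9.29 and 8.45 in naïve and 9.51, 9.81 and 10.11 in primed ESCs. Replicate 3 was the lowest and replicate 1 the highest naïve library in both lines, and the media overlapped through replicate 1. The differences were -0.65 (95% interval -1.28 to -0.03, adjusted p = 0.0958) and -0.64 (-1.26 to -0.01, adjusted p = 0.103). Without replicate 1 of the naïve group they were -0.94 in each line (adjusted p = 0.0237 with WT TET2 and 0.0291 with mutant TET2), and with WT TET2 the fit of the 6 libraries alone also passed (adjusted p = 0.0423).

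Phlda3, whose product holds back AKT at the membrane, read 9.25, 9.52 and 8.80 in naïve and 9.72, 9.11 and 9.58 in primed ESCs with WT TET2. With mutant TET2 it read 9.17, 9.41 and 9.31 in naïve and 9.53, 9.56 and 8.85 in primed ESCs. The groups overlapped, and the differences were -0.28 (95% interval -0.76 to 0.19) and -0.02 (-0.49 to 0.46), the second changing sign when replicate 1 of mutant naïve or replicate 1 or 2 of mutant primed ESCs was left out.

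**Figure D3:**
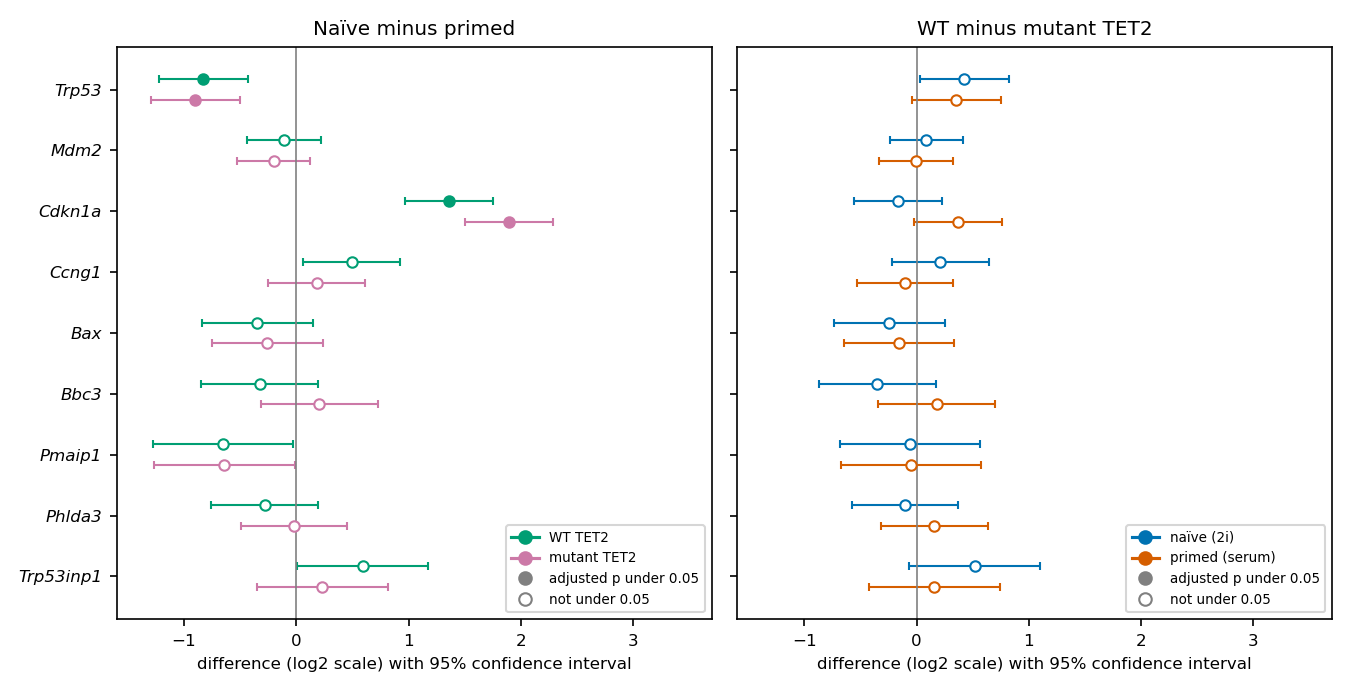
Differences of the 9 genes between media (left, naïve minus primed, for WT and mutant TET2) and between rescue lines (right, WT minus mutant, in naïve and primed ESCs), on the log2 scale with 95% confidence intervals from limma. Filled points have an adjusted p under 0.05, which is the case for Trp53 and Cdkn1a between media and for no gene between rescue lines.

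The second question of the design was whether the catalytic activity of TET2 went with a change in gene expression. None of the 9 genes passed the test between rescue lines, where 0.0987% of all genes did so in naïve and 0.254% in primed ESCs. Before adjustment, 1 of the 9, Trp53, had a p under 0.05 in naïve ESCs and 0 did in primed ESCs. Over all 14185 genes tested, 1882 had such a p in naïve and 2295 in primed ESCs. In limma-voom on the recovered reads, none of the 9 was called either. The groups did not overlap for 1 of the 9 genes in naïve and 2 in primed ESCs, against 16.8% and 22.4% of all genes. The median difference, WT minus mutant, was -0.06 in naïve and 0.16 in primed ESCs, beside 0.0032 and 0.0087 over all genes. The exact permutation test of 3 libraries against 3 cannot give a p below 0.1. It gives 0.1 whenever groups do not overlap, so that its 0.1 for each of these non-overlapping genes adds nothing.

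Trp53 had differences of the same sign and like size in both media. WT minus mutant, its difference was 0.42 in naïve ESCs (95% interval 0.03 to 0.82, adjusted p = 0.351), where replicate 1 of WT lay below replicate 3 of the mutant. In primed ESCs it was 0.35 (-0.04 to 0.75, adjusted p = 0.363), with every WT library above every mutant library. Cdkn1a differed by -0.17 in naïve (-0.56 to 0.22) and by 0.37 in primed ESCs (-0.03 to 0.76), and the primed libraries did not overlap. Trp53inp1 differed by 0.52 in naïve ESCs (-0.07 to 1.10, adjusted p = 0.419), without overlap, and by 0.16 in primed ESCs (-0.43 to 0.74). For Mdm2 the intervals were -0.24 to 0.41 in naïve and -0.33 to 0.32 in primed ESCs. For the remaining genes the differences lay between -0.35 and 0.21. In the test of whether the rescue lines differed by another amount in naïve than in primed ESCs, no member passed, and neither did any other gene (0% of 14185 passed, and 489 had a p under 0.05 before adjustment). The largest such contrasts were those of Cdkn1a and Bbc3, both at -0.53.

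Levels of different genes were compared per length, as reads per kilobase of annotated exon, scaled to the gene reads of the library (RPKM). Ccng1 and Bax were the highest of the 9 in every group. In the WT rescue in 2i, Ccng1 was at 212 ± 23.4 (SD, n = 3) and Bax at 141 ± 46.4, and their libraries overlapped. Bbc3 was the lowest in every group, with means of 10.1 to 13.1. Cdkn1a moved furthest in this order. In 2i the mean of Cdkn1a was above that of Mdm2 in both lines. The libraries of these genes overlapped with WT TET2 (41.2 to 68.1 against 37.3 to 41.7) and not with mutant TET2. At 51.5 with WT TET2 Cdkn1a came next below Trp53, whose libraries it overlapped. At 57.3 with mutant TET2 it came next above Trp53inp1, with no overlap (54.7 to 61.9 against 50.1 to 52.3). In primed ESCs it was at 19.6 and 14.7, below Pmaip1 at 27.3 and 27.9, and next above Bbc3. With WT TET2 its primed libraries, at 18.1 to 20.6, did not overlap those of Pmaip1 (25.8 to 29.5) or Bbc3 (10.1 to 15.1). With mutant TET2 its primed libraries, at 12 to 17.4, overlapped those of Bbc3 (7.38 to 13.6). Trp53 was at 64.5 and 48.9 in naïve and at 118 and 89.5 in primed ESCs and came next after them there. Mdm2 stayed between 38.1 and 44.5 in the 4 groups.

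Of 48 other genes known as p53 targets, 46 were tested. With WT TET2, 7 were higher and 13 lower in naïve ESCs, and with mutant TET2, 11 were higher and 8 lower. These are 43.5% and 41.3% of the genes tested, beside the 35.9% and 35.2% of all genes above. Their median difference was -0.18 with WT TET2 and 0.06 with mutant TET2, so that the list as a whole had no common direction. With 1 library left out, 13 to 21 genes were called with WT TET2, the fewest without primed replicate 1, and 14 to 21 with mutant TET2. Over all genes, the 5095 called with WT TET2 then became 3500 to 4685, and the 4993 with mutant TET2 became 3556 to 5089. The left-out counts of the lists below have this same background. Of the 46 genes, 13 were called in both lines, 6 higher and 7 lower in both.

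The 3 that fell most were Perp, a membrane protein linked to cell adhesion and apoptosis, Plk3, a stress-responsive polo-like kinase, and Steap3, a ferric reductase. Perp read 6.88, 6.27 and 6.31 in naïve and 8.38, 8.75 and 8.63 in primed ESCs with WT TET2, without overlap. It differed by -2.10 with WT TET2 (adjusted p = 2.78e-06) and by -2.37 with mutant TET2 (adjusted p = 8.95e-07). Plk3 differed by -2.23 and -2.05, and Steap3 by -2.12 and -2.0. Of the genes that rose, Rrm2b, the p53-inducible subunit of ribonucleotide reductase, was higher in naïve ESCs by 1.60 and 1.65. Ddit4, which restrains mTORC1, was higher by 1.26 and 1.83.

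The other gene among the 3 that rose most was Gm16197, the name in the table for Trp53cor1, the long noncoding RNA next to Cdkn1a. It lies on the minus strand of chromosome 17 (29194419 to 29215906) and does not overlap Cdkn1a. It was read little, with 24, 39 and 26 reads in naïve and 0, 0 and 2 in primed ESCs with WT TET2. With mutant TET2 there were 22, 29 and 66 reads in naïve and 5, 0 and 3 in primed ESCs. The naïve libraries lay above the primed ones in both lines (adjusted p = 2.67e-05 and 0.00049), and with so few primed reads no fold is given. With WT and mutant TET2, its means were 5.79 and 5.72 in naïve but 3.94 and 4.37 in primed ESCs. It therefore passed the filter on low values only through the naïve groups, so that these p-values are no support for the direction.

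Of 28 regulators and relatives of p53, 27 were tested. With WT TET2, 6 were higher and 8 lower in naïve ESCs (51.9%), and with mutant TET2, 3 were higher and 5 lower (29.6%), with median differences of -0.02 and -0.13. The all-gene shares were 35.9% and 35.2%. With 1 library left out, the 14 called with WT TET2 became 6 to 12 (8 without naïve replicate 2 or 3, and 6 without primed replicate 1 or 3). Without primed replicate 1 or 3, the calls over all genes fell too, from 5095 to 3500 and 3732. The 8 called with mutant TET2 became 5 to 11, with 5 without naïve replicate 2. Higher in both lines were Chek1, a checkpoint kinase that acts on p53 (0.99 and 0.58), and Rpl5, a ribosomal protein that can bind MDM2 (0.83 and 0.68). Lower in both were Daxx (-0.70 and -0.63), a histone chaperone that also binds MDM2, Ppm1d (-0.57 and -0.55), a phosphatase that turns p53 signalling off and is itself a p53 target, and Trim24 (-0.50 and -0.58), a ubiquitin ligase for p53. Rpl5 has many processed copies in the genome, and its value is uncertain for reads placed at random among them. With mutant TET2, Chek1 lost its call when replicate 1 or 2 of either medium was left out (adjusted p 0.112 to 0.17) and Rpl5 when naïve replicate 2 was left out (0.0648). Trim24 lost it without naïve replicate 2 in either line (0.122 and 0.0699) and, with WT TET2, without any one primed library (0.0674 to 0.0772).

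Of 13 other members of the BCL2 family, which decides on mitochondrial cell death, 10 were tested, and 4 passed in each line (40%, near the 35.9% and 35.2% of all genes). With WT TET2 the 4 were lower in naïve ESCs, and with mutant TET2 3 were lower and 1 was higher. The medians were -0.37 and -0.08. With WT TET2, 2 passed without naïve replicate 2 or 3 or any one primed library and 3 without naïve replicate 1, and with mutant TET2 3 to 4 passed with 1 library left out. Bcl2l11, which encodes the death-promoting BH3-only protein BIM, read 8.01, 7.83 and 7.90 in naïve and 9.83, 9.60 and 9.77 in primed ESCs with WT TET2, with no overlap. It differed by -1.82 with WT TET2 (adjusted p = 3.08e-07) and by -1.5 with mutant TET2 (adjusted p = 2.34e-06). The survival genes Mcl1 (-0.44 and -0.75) and Bcl2l1 (-0.49 and -0.51) were lower too, so that the genes that fell in both lines act on both sides of the death decision. With WT TET2, Mcl1 lost its call without naïve replicate 1 or 2 or primed replicate 2 or 3 (adjusted p 0.0576 to 0.0792), and Bcl2l1 without naïve replicate 1 or 3 or primed replicate 1 or 3 (0.0526 to 0.111). With mutant TET2, Bcl2l1 lost it without naïve replicate 2 (0.0701) or primed replicate 1 (0.0655).

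The last list holds 28 cell cycle genes that are known to be repressed when p21 leads to formation of the DREAM complex, and all were tested. With WT TET2, 2 were higher and 6 lower in naïve ESCs (28.6%), and with mutant TET2 0 were higher and 7 lower (25%), shares that lie under the background. The medians were -0.12 and -0.27. With WT TET2, 5 were called without naïve replicate 1 and 2 without primed replicate 1 or 3. With mutant TET2, 2 were called without naïve replicate 2, and 4 without primed replicate 2 or with the 6 libraries alone. Lower in both lines were 5 genes, among them Cdc20 (-0.68 and -0.70), an activator of the anaphase-promoting complex, Plk1 (-0.60 and -0.53), a mitotic kinase, and Mcm5 (-0.42 and -0.63), a part of the replicative helicase. Plk1 lost its call without naïve replicate 1 or primed replicate 1 or 3 with WT TET2 (adjusted p 0.075 to 0.0882), and without replicate 1 or 2 of either medium with mutant TET2 (0.0864 to 0.233). Mcm5 lost it with WT TET2 without naïve replicate 1 or 2 or any one primed library (0.058 to 0.118). No gene of the 4 lists passed the test between rescue lines or in the test of whether they differed by medium.

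**Figure D4:**
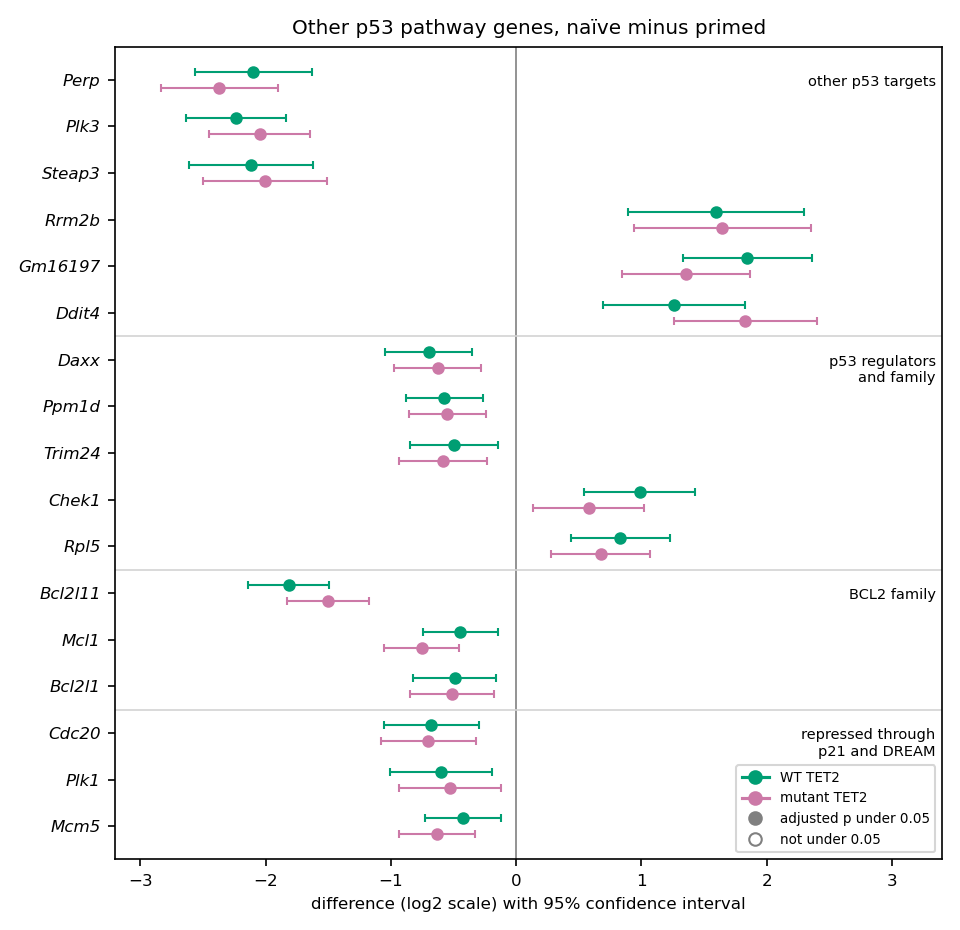
Differences, naïve minus primed, of the genes named from the 4 lists, on the log2 scale with 95% confidence intervals from limma, with WT TET2 in green and mutant TET2 in pink. All 17 genes have an adjusted p under 0.05 in both lines, since this was the condition for naming them, and Perp, Plk3 and Steap3 lie near -2.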

How the data were processed

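The authors trimmed reads with Trim Galore 0.3.3, aligned them to mm9 with TopHat2 2.0.9, placing a read with several equal positions at random, and counted them per gene. The authors deposited gene values on a log2 scale, made with DESeq2 by variance stabilisation. The repeat table was not used. The transformation was inverted, 100% of values came out as whole reads (within 0.01), and totals came from these.

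Groups were compared with limma 3.58.1 (R 4.3.3), all 12 libraries in 1 fit with a variance trend. The filter kept the 14185 genes with a mean of 1 or more above the table's minimum, with Benjamini-Hochberg adjustment over all of them and calls at an adjusted p under 0.05. Differences are on the variance-stabilised scale, which understates changes of low genes. The fit was tested on simulated data. Exact permutation tests were two-sided. Length is the union of GENCODE exons. Python 3.11.15 with scipy 1.17.1 was used.

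The 9 genes, the lists and the tests were chosen with earlier results of these data known, so that no list is independent evidence. From each list, up to 3 highest and 3 lowest of the genes called between media in both lines were named, and Trp53, Cdkn1a and Mdm2 were each given the 3 genes with the highest Pearson r. Older symbols were matched for Trp53cor1 and other list genes. Comparisons between media and between rescue lines share libraries. The alternatives tried were no filter and a stricter one, a fit without variance trend, centring on the median, quantile normalization, limma-voom on recovered counts with TMM scaling, the 6 libraries of a comparison alone, a replicate block, an adjusted p under 0.01, and each library left out. Same-numbered naïve libraries deviated together from their group means (r = 0.586, 0.300 and 0.385), so that the numbers, from the labels, were taken to pair them. In primed ESCs r was 0.161, -0.0652 and 0.189, which did not pair them. Between media, r was 0.220, 0.145 and -0.0162 with WT TET2 and -0.0467, -0.146 and -0.0791 with mutant TET2, which did not pair them either. The main fit has no replicate block, so that its results for rescue lines in naïve ESCs ignore the pairing there.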

Additional observations from a re-analysis of the deposited data

How the results depend on the processing

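The calls of Trp53 and Cdkn1a between media held in every setting, and no alternative called any of the 9 genes between rescue lines or for the interaction. Between media, the 6 libraries alone called 5 of the 9 with WT TET2, and 5314 of all 14185 genes. Leaving out 1 library gave 2 to 3 called with WT TET2 and 2 to 4 with mutant TET2, with 3500 to 4685 and 3556 to 5089 of all genes. An adjusted p under 0.01 left 3096 and 2989 genes.

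Between rescue lines the 14 genes called in naïve ESCs became 9 with no filter, 5 with the stricter filter, 9 with 6 libraries alone, 6 at an adjusted p under 0.01, and 5 to 14 with 1 library left out. The 36 in primed ESCs became 23, 18 and 13 with the stricter filter, 6 libraries alone and 0.01, and 12 to 82 with 1 library left out. The interaction called 0 or 1. With the replicate block the counts were 36 in naïve and 209 in primed ESCs, 4785 and 4677 between media, and 0 for the interaction. Only in naïve ESCs did the deviations of same-numbered libraries pair them, so that the blocks in primed ESCs and between media rest on numbers alone. The block changed no call of the 9 genes (Trp53, naïve rescue lines, adjusted p = 0.206), but ended those of Mcl1 (0.0529) and Mcm5 (0.0676) with WT TET2 and of Chek1 (0.0634) and Plk1 (0.0636) with mutant TET2. With mutant TET2, Chek1 also lost its call with no filter, no variance trend, centring and 6 libraries alone (adjusted p 0.0508 to 0.0585), Plk1 with no filter, no variance trend, quantile normalization, limma-voom and 6 libraries alone (0.052 to 0.076), and Bcl2l1 with 6 libraries alone (0.0535).

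Differences near 0 that changed sign are listed here. Under quantile normalization Mdm2 (0.034) and Ccng1 (0.019) between rescue lines in primed ESCs and Trp53 in the interaction (-0.10) changed sign. With 1 library left out, WT minus mutant in naïve ESCs ran from -0.043 to 0.17 for Mdm2, -0.42 to 0.24 for Pmaip1 and -0.27 to 0.093 for Phlda3. In primed ESCs it ran from -0.12 to 0.059 for Mdm2, -0.26 to 0.17 for Ccng1, -0.41 to 0.048 for Bax, -0.082 to 0.35 for Bbc3, -0.20 to 0.10 for Pmaip1, -0.074 to 0.34 for Phlda3 and -0.21 to 0.58 for Trp53inp1. Naïve minus primed with mutant TET2 ran from -0.057 to 0.37 for Bbc3, -0.25 to 0.10 for Phlda3 and -0.13 to 0.66 for Trp53inp1, the last passing the test at 0.66, and the interaction of Trp53 from -0.074 to 0.26. The causes were not tested.

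Precision rests on 3 libraries a group. Bbc3 had the fewest reads, with 152 in its lowest library.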

Other observations

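Over the 12 libraries, the genes with the pattern most like that of Trp53 were Slc35a4 (Pearson r = 0.982), Ctdp1 (0.980), a phosphatase for RNA polymerase II, and Zdhhc5 (0.979), a palmitoyltransferase. Those most like Cdkn1a were Bhlhe40 (0.982), a transcription repressor, Copz2 (0.981), a coat protein of transport vesicles, and Bglap2 (0.981), an osteocalcin gene. Those most like Mdm2 were Plod2 (0.929), a collagen lysyl hydroxylase, Rnf146 (0.918) and Soat1 (0.902). For Trp53 and Cdkn1a these patterns are mainly the step between media, which many genes share. Slc35a4 read 7.90 to 8.59 in naïve and 8.88 to 9.61 in primed ESCs, and Bhlhe40 read 6.85 to 7.76 and 4.76 to 5.79.

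Among the 9 genes themselves, deviations of libraries from their own group mean ran together in a way that cuts across the medium. These correlations are descriptions over 12 libraries that share their scaling. The 3 pairs followed here are the extremes of all pairs among the 9 genes, and no background over other genes was taken. Other pairs came close to them, at 0.811 for Cdkn1a and Phlda3 and -0.738 for Ccng1 and Bbc3. Bbc3 and Phlda3 deviated together (r = 0.968), as did Ccng1 and Trp53inp1 (r = 0.879), and Bbc3 deviated against Trp53inp1 (r = -0.816). Large deviations were seen in replicate 3 of mutant primed ESCs, in which Trp53inp1 lay 0.85 and Ccng1 0.55 above the group mean and Bbc3 0.53 and Phlda3 0.46 below it, and replicate 3 of WT naïve ESCs, with Trp53inp1 0.38 above and Bbc3 0.52 below. In replicate 1 of mutant primed ESCs the deviations were -0.73 for Trp53inp1, -0.32 for Ccng1 and 0.33 for Bbc3. Without replicate 3 of mutant primed ESCs the correlations of the 3 extreme pairs were 0.946, 0.552 and -0.670. Without any other one library they ran from 0.960 to 0.981, 0.866 to 0.930 and -0.900 to -0.806. The mean correlation of that mutant primed library with the others of its group over all genes was 0.973, the lowest of the 12. What sets these libraries apart was not tested.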
